A study of Mus musculus with 4 samples.

Results

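The 7 genes for the inhibitors of cyclin-dependent kinases (CDKs) were followed through a single-cell RNA data set of mouse keratinocytes. Cdkn1a, Cdkn1b, Cdkn1c, Cdkn2a, Cdkn2b, Cdkn2c and Cdkn2d were taken by gene symbol from the 32285 genes listed for both RNA libraries, in cells with at least 1000 genes and at most 15% mitochondrial UMIs (unique molecular identifiers, each standing for 1 captured transcript). The series sampled MK, a mouse keratinocyte line, under the names Diff_MK and MK, with 1 RNA library and 1 library of heritable lineage tags for each name. What Diff stands for is not spelled out in the labels. Every sample carried the same treatment label, Dox, was grown in E low medium with 15% fetal bovine serum and antibiotics, and was sorted for GFP-positive cells that carried a lineage tag before droplet capture. With 1 RNA library for each name, the differences below are between 2 libraries. They have no replicate check and no p-value, and the intervals given are 95% intervals that cover counting error only.

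CDK inhibitors stop or slow the cell cycle by binding the kinases that drive it. The Cip/Kip proteins p21 (Cdkn1a), p27 (Cdkn1b) and p57 (Cdkn1c) bind complexes of several cyclins and CDKs, chiefly CDK2, while the INK4 proteins p16 and p15 (Cdkn2a and Cdkn2b), p18 (Cdkn2c) and p19 (Cdkn2d) bind CDK4 and CDK6 and keep them from their D cyclins. Cdkn2a also encodes p19Arf from another first exon, which acts on p53 through Mdm2. In epidermis, p21 is a p53 target that also increases as keratinocytes leave the cycle, and p27 is regulated largely through the breakdown of its protein, which transcript counts do not show.

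After filtering, 6912 of 7569 Diff_MK cells (103885150 UMIs) and 7175 of 7780 MK cells (115181759 UMIs) remained, with medians of 14223.5 and 15599 UMIs per cell. Cells were split by the proliferation genes Mki67, which encodes the Ki-67 antigen of cycling cells, and Top2a, the DNA topoisomerase used in replication and chromosome segregation. Cells with at least 1 UMI of either gene, here called positive, made up 57.5% of Diff_MK cells and 84.4% of MK cells. Positive cells were also the deeper ones, with a median of 17031 UMIs against 11076 in negative cells of Diff_MK, and 15988 against 13086 in MK. Thinned to 7500 UMIs per cell, which left 6277 Diff_MK and 6838 MK cells, the positive share was 54.1% in Diff_MK and 79.2% in MK. Keratinocyte genes were abundant: the 8 basal keratinocyte markers summed to 17711 CPM (counts scaled to a total of 1000000 UMIs) in Diff_MK and 8658 CPM in MK. Markers of other cell types stood near 0, with sums over 6 genes each of 0.347 CPM in Diff_MK and 0.573 CPM in MK for fibroblasts, 2.38 and 2.52 CPM for melanocytes, and 2.16 and 1.58 CPM for endothelium. Of 6 immune markers, 1 passed 5 CPM in each library. Of the barcodes, 14 occurred in both RNA libraries and 9 were kept in both.

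Of the 7 members, 6 were measured well and Cdkn1c was not. The INK4 genes Cdkn2a and Cdkn2b are neighbours on chromosome 4 (GRCm38), at chr4:89274471-89294653 and chr4:89306299-89311039 on the minus strand, with 11645 bases between them. Cdkn2c lies on the same chromosome at chr4:109660876-109667189, Cdkn2d at chr9:21288410-21291407, Cdkn1a at chr17:29090976-29100727, Cdkn1b at chr6:134920401-134925513 and Cdkn1c at chr7:143458339-143461050. Both annotated coding transcripts of Cdkn2a share their second exon, at chr4:89276645-89276985, and end in the same last exon, and differ in the first. Counts from the 3′ end therefore could not separate p16 from p19Arf, and Cdkn2a below stands for both.

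Cdkn1a and Cdkn2b had the most similar levels over cell groups of any pair of members (described below), so the 250 bases before a RefSeq start of each are shown, 5′ to 3′ on the strand of the gene. Capitals mark GGGCGG (the core of the GC box) and TTTGAA or TTCGAA (the CHR element of cell cycle genes), searched on both strands, in GRCm38.p6 coordinates chr17:29093519-29093768 on the plus strand for the second Cdkn1a start and chr4:89311033-89311282 on the minus strand for Cdkn2b.
Cdkn1a: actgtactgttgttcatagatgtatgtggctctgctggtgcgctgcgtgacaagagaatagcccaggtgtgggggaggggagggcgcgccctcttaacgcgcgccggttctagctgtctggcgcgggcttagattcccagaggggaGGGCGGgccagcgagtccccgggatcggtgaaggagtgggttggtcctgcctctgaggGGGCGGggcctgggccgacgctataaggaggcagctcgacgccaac
Cdkn2b: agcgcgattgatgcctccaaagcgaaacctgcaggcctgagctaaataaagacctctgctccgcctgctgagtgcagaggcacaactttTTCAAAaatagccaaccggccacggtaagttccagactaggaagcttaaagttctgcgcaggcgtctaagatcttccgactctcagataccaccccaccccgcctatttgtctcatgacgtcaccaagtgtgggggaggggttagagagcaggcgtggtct
The Cdkn1a window holds 2 matches to GGGCGG and none to the CHR letters, and the Cdkn2b window holds 1 CHR match and none to GGGCGG. Neither window holds CCAAT or TATAAA. RefSeq windows were found for 6 of the members, 9 windows in all. Matches to GGGCGG also stood in the windows of Cdkn1b (1), of the first start of Cdkn2a (2), of the first start of Cdkn2c (3) and of Cdkn2d (3), while 32.7% of 32851 RefSeq promoter windows of the same length hold at least 1. The window of the first Cdkn1a start, not printed, holds no match to GGGCGG. The windows of the second starts of Cdkn2a and Cdkn2c hold none either. CHR letters occur in 17.1% of them. Which start the cells used cannot be read from 3′ counts.

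Cdkn1a was the most abundant member in both libraries. It had 237 CPM in Diff_MK (234 to 240 CPM) and 176 CPM in MK (174 to 179 CPM), a ratio of 1.34 (1.32 to 1.37). Since 3′ counting gives 1 UMI per captured molecule, levels were not divided by transcript length. In Diff_MK the order was Cdkn1a, Cdkn2a (40.1 CPM), Cdkn1b (38.8 CPM), Cdkn2b (29.4 CPM), Cdkn2d (27.8 CPM), Cdkn2c (5.46 CPM) and Cdkn1c (0.0674 CPM). The intervals of Cdkn2a and Cdkn1b overlapped, and so did those of Cdkn2b and Cdkn2d. In MK the order was Cdkn1a, Cdkn2d (26.9 CPM), Cdkn1b (26.5 CPM), Cdkn2a (24.7 CPM), Cdkn2b (20.8 CPM), Cdkn2c (9.45 CPM) and Cdkn1c (0.0695 CPM), with overlapping intervals for Cdkn2d and Cdkn1b and, narrowly, for Cdkn1b and Cdkn2a. Cdkn1c, the p57 gene, rested on 7 UMIs in Diff_MK and 8 UMIs in MK, never more than 1 in a cell, against a floor of 3 UMIs (0.0289 CPM in Diff_MK), and is not described further.

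Between the libraries, Cdkn2a was 1.62-fold higher in Diff_MK (1.55 to 1.70), Cdkn1b 1.46-fold (1.40 to 1.54) and Cdkn2b 1.41-fold (1.34 to 1.49). Cdkn2c was lower in Diff_MK, at a ratio of 0.578 (0.521 to 0.640). Cdkn2d had a ratio of 1.03, with an interval of 0.983 to 1.09 that holds 1. Of the 5 members at 10 CPM or more, 1 was past 1.5-fold higher (Cdkn2a) and 0 were past 1.5-fold lower, beside 4.51% and 7.57% of 7736 genes at that level. The interval lay above 1 for 4 of the 5 and below 1 for 0, beside 23.8% and 62.1% of those genes. Cdkn2c, counted among genes at 5 CPM or more, was past 1.5-fold lower, as were 8.2% of 9282 genes. The median gene at 10 CPM or more in both libraries had a log2 ratio of -0.15, so that relative to it Cdkn2d was 1.15-fold higher in Diff_MK and Cdkn2c stood at 0.642.

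In positive and negative cells the members fell into 3 patterns. Cdkn1a, Cdkn2a and Cdkn2b were lower in positive cells of both libraries, Cdkn2c and Cdkn2d were higher in positive cells of both, and Cdkn1b differed between the libraries. Cdkn2b, the p15 gene, had 22.5 CPM in positive and 43.1 CPM in negative cells of Diff_MK, a ratio of 0.522 (0.486 to 0.561). In MK it had 17.4 CPM in positive and 42.7 CPM in negative cells, a ratio of 0.407 (0.372 to 0.446). Cdkn1a, the p21 gene, had 211 CPM in positive and 289 CPM in negative Diff_MK cells, and 158 CPM in positive and 297 CPM in negative MK cells. Its ratios were 0.729 (0.711 to 0.748) in Diff_MK and 0.531 (0.514 to 0.549) in MK. Cdkn2a had 34.1 CPM in positive and 52.0 CPM in negative Diff_MK cells, a ratio of 0.656 (0.616 to 0.697), and 24.0 CPM in positive and 29.4 CPM in negative MK cells, a ratio of 0.815 (0.736 to 0.903).

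Cdkn2d, the p19 INK4 gene, had 33.8 CPM in positive and 15.9 CPM in negative Diff_MK cells, a ratio of 2.12 (1.93 to 2.33). In MK it had 28.2 CPM in positive and 18.7 CPM in negative cells, a ratio of 1.51 (1.34 to 1.71). Cdkn2c, the p18 gene, had 7.33 CPM in positive and 1.70 CPM in negative Diff_MK cells, a ratio of 4.30 (3.28 to 5.73). In MK, Cdkn2c had 9.94 CPM in positive and 6.25 CPM in negative cells, a ratio of 1.59 (1.29 to 1.98). Cdkn1b, the p27 gene, had 38.2 CPM in positive and 39.95 CPM in negative Diff_MK cells (ratio 0.956, 0.896 to 1.02), but 27.6 CPM in positive and 19.5 CPM in negative MK cells (ratio 1.41, 1.25 to 1.60).

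Of the 5 members at 10 CPM or more, 2 were past 1.5-fold lower in positive Diff_MK cells (Cdkn2a and Cdkn2b), beside 4.43% of 7661 genes, and 1 was past 1.5-fold higher (Cdkn2d), beside 24.3%. In MK, 2 were past 1.5-fold lower (Cdkn1a and Cdkn2b), beside 5.62% of 7826 genes, and 1 was past 1.5-fold higher (Cdkn2d), beside 9.55%. At 5 CPM or more, where Cdkn2c also counts, 25% of genes in Diff_MK and 9.69% in MK were past 1.5-fold higher. The median gene was itself higher in positive Diff_MK cells, by a log2 ratio of 0.25, and by 0.01 in MK. Relative to that median, the Diff_MK ratios of positive to negative cells were 1.79 for Cdkn2d, 0.805 for Cdkn1b, 0.614 for Cdkn1a and 0.440 for Cdkn2b.

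**Figure D1:**
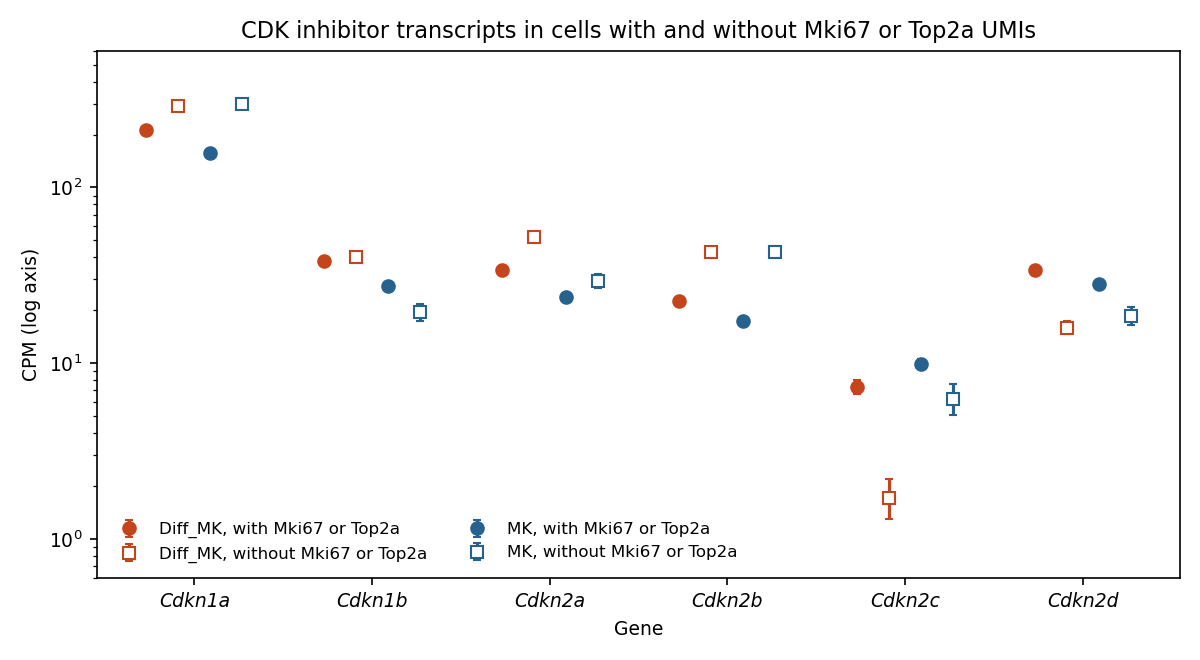
Level of 6 CDK inhibitor genes in CPM (log axis) in positive cells (filled circles) and negative cells (open squares) of Diff_MK (red) and MK (blue), with 95% counting intervals. Cdkn1a, Cdkn2a and Cdkn2b lie lower in positive cells, and Cdkn2c and Cdkn2d higher, with the lowest value at 1.70 CPM for Cdkn2c in negative Diff_MK cells.

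The same directions were seen as steps when cells were ordered by the number of Mki67 and Top2a UMIs. Cdkn1a had 289, 268, 211 and 188 CPM in Diff_MK cells with 0, 1 to 2, 3 to 9 and 10 or more UMIs, and 297, 228, 162 and 134 CPM in MK cells. Cdkn2b had 43.1, 35.1, 20.6 and 18.6 CPM over the same steps in Diff_MK, and 42.7, 27.5, 17.0 and 14.6 CPM in MK. Cdkn2a had 52.0, 43.0, 33.3 and 31.1 CPM in Diff_MK, and 29.4, 26.0, 25.4 and 22.4 CPM in MK. The values of these 3 genes were lower at every further step in both libraries, but the intervals of some neighbouring steps overlapped. For Cdkn2a in MK they were 23.5 to 28.7 CPM at 1 to 2 UMIs and 23.8 to 27.2 CPM at 3 to 9. The steps divide the same cells as the classes above. Cdkn2d had 15.9, 18.2, 26.5 and 44.2 CPM in Diff_MK, and 18.7, 14.4, 22.7 and 36.0 CPM in MK, where the second step lay below the first. Cdkn2c had 1.70, 3.43, 7.26 and 8.93 CPM in Diff_MK, and 6.25, 6.29, 9.35 and 11.4 CPM in MK. Cdkn1b in MK had 19.5 and 18.7 CPM in the 2 lowest steps and 26.2 and 31.1 CPM in the 2 highest, while in Diff_MK it ranged between 33.6 and 41.8 CPM with the highest value at 10 or more UMIs.

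**Figure D2:**
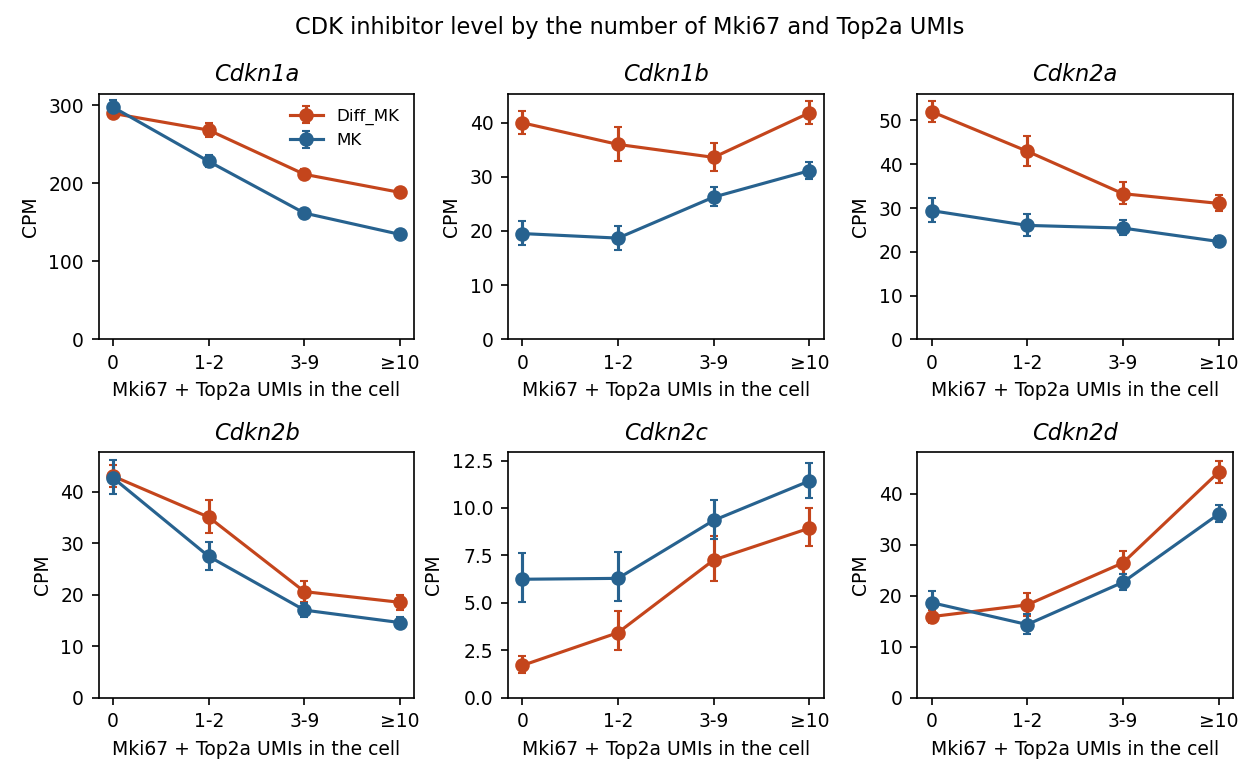
Level in CPM (linear axes from 0) of 6 members in cells with 0, 1 to 2, 3 to 9 and 10 or more summed Mki67 and Top2a UMIs, for Diff_MK (red) and MK (blue), with 95% counting intervals. Without thinning, Cdkn1a and Cdkn2b step down in both libraries and meet at 0 UMIs, Cdkn2d reaches 44.2 CPM in Diff_MK and 36.0 CPM in MK, and Cdkn2c lies lower in Diff_MK at every step.

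Within a class, the libraries compared differently from the whole. In negative cells, Cdkn1a had 289 CPM in Diff_MK and 297 CPM in MK (ratio 0.973, 0.940 to 1.01), and Cdkn2b had 43.1 CPM in Diff_MK and 42.7 CPM in MK (ratio 1.01, 0.919 to 1.11), so at full depth neither difference was larger than counting error. At 7500 UMIs per cell the Cdkn2b ratio was 1.16 and that of Cdkn1a 1.02, each above the interval just given. Thinning also changed which cells counted as negative: 1121 at full depth and 1419 after thinning in MK, and 2941 and 2884 in Diff_MK. The closeness of the libraries in negative cells therefore depends on thinning, and depth and the change of class were not told apart. In the same cells, Cdkn1b was 2.05-fold higher in Diff_MK (1.81 to 2.33) and Cdkn2a 1.77-fold higher (1.60 to 1.97), while Cdkn2c stood at a ratio of 0.273 (0.194 to 0.381) and Cdkn2d at 0.853 (0.738 to 0.987). The median gene had a log2 ratio of -0.32 between the libraries in negative cells, and relative to it Cdkn2d stood at 1.06, Cdkn1a at 1.22 and Cdkn2b at 1.26. Of the 5 members at 10 CPM or more, 2 were past 1.5-fold higher in negative Diff_MK cells, beside 6.03% of 7600 genes, and 0 were past 1.5-fold lower, beside 28.6%. Cdkn2c, counted at 5 CPM or more, was past 1.5-fold lower, as were 29.6% of genes.

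In positive cells all 5 of these members had an interval above 1 between Diff_MK and MK, beside 27.9% of 7746 genes. Their ratios were 1.42 for Cdkn2a, 1.39 for Cdkn1b, 1.34 for Cdkn1a, 1.29 for Cdkn2b and 1.20 for Cdkn2d, and 0 were past 1.5-fold, beside 3.03% of genes past it upward and 2.43% downward. Cdkn2c stood at 0.738 (0.662 to 0.822). Negative cells held a larger share of UMIs in Diff_MK, since positive cells held 66.7% of its UMIs and 86.7% of those of MK. With Diff_MK weighted to the MK shares of both classes, the ratio of Diff_MK to MK was 1.22 for Cdkn2b in place of 1.41, 1.26 for Cdkn1a in place of 1.34, 1.48 for Cdkn2a in place of 1.62 and 1.45 for Cdkn1b in place of 1.46. For Cdkn2d it was 1.17 in place of 1.03, and for Cdkn2c 0.697 in place of 0.578.

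Cells were then ordered within each library by their summed level of 15 S phase genes, and separately of 15 G2/M phase genes (Mki67 and Top2a are in neither list), into 5 bins. Cdkn2d followed the G2/M genes, with 14.8, 15.5, 19.8, 30.1 and 48.0 CPM in Diff_MK from the lowest bin to the highest, and 17.8, 15.6, 23.9, 30.8 and 41.8 CPM in MK. Along the S phase genes the course of Cdkn2d differed between the libraries. Diff_MK had 14.1, 18.5, 32.1, 38.8 and 28.5 CPM, highest in the bin below the top one and lowest in the lowest bin. MK had 24.1, 32.9, 32.2, 25.3 and 18.5 CPM, highest in the bin above the lowest one and lowest in the top bin. Cdkn2c was also highest in the top G2/M bin, at 11.8 CPM in Diff_MK and 16.3 CPM in MK, against 1.28 CPM in the lowest Diff_MK bin and 6.05 CPM in the lowest MK bin. Along the S phase genes, Cdkn2c in MK was highest in the lowest bin, at 12.6 CPM, and 6.04 CPM in the highest, whereas Diff_MK had 1.14 CPM in the lowest bin and 5.997 CPM in the highest.

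Cdkn1a had 295, 307, 242, 193 and 185 CPM over the S phase bins of Diff_MK, and 291, 176, 139, 137 and 143 CPM over those of MK, where the lowest bin stood apart from the others. Cdkn2b followed the same course in MK, with 39.9 CPM in the lowest S phase bin and between 14.1 and 19.3 CPM in the others. Cdkn2a had 56.5 CPM in the lowest and 30.3 CPM in the highest S phase bin of Diff_MK, and 30.3 CPM in the lowest and 22.2 CPM in the highest of MK. Of the Diff_MK cells, 11.3% had no UMI of the S phase list and 21.9% none of the G2/M list, against 0.711% and 3.23% of MK cells.

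Cells of both libraries were clustered together without the 7 members, which gave 13 clusters and 17 groups of at least 50 cells of 1 cluster and 1 library. Cdkn1a was highest in cluster 9, with 447 CPM in its 152 Diff_MK cells. Its 116 MK cells had 289 CPM of Cdkn1a, the highest of the MK groups. Ranked over both libraries together, cluster 9 was led by late cornified envelope genes (Lce3c, Lce3d and Lce3e) and Calm4. In it 4 of 4 stress keratins were raised. Over all kept cells Lce3c had 9.33 CPM in Diff_MK but 0.0521 CPM in MK, so it does not describe the MK cells of this cluster. Cdkn1a was lowest in cluster 0, in which 14 of 15 G2/M genes were raised, at 116 CPM in its MK cells. Cdkn1b stood out in cluster 8, found in 486 Diff_MK cells and led by Defb4, Defb14, Serpinb11, Dsg1b and Krt78, with 77.4 CPM against 17.0 to 58.8 CPM in the 16 other groups. The same cluster also had the highest Cdkn2a level, 65.9 CPM, and 56.3 CPM of Cdkn2b, while 15.6% of its cells were positive.

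Cluster 2, led by Sox6, Krt15 and Clu and found in 1850 Diff_MK cells, held few positive cells (10.4%) and the lowest levels of Cdkn2c, 0.471 CPM (9 UMIs), and of Cdkn2d, 11.8 CPM. Its Cdkn2a level was 53.9 CPM and its Cdkn1a level 252 CPM. Cluster 4, led by Pth1r and Lor, had the highest Cdkn2c level, at 21.5 CPM in 500 Diff_MK cells and 21.8 CPM in 1331 MK cells, and the 15 other groups had between 0.471 and 16.7 CPM. It also had the lowest Cdkn2a levels, 20.4 CPM in Diff_MK and 19.99 CPM in MK, and 75% of its Diff_MK cells and 77.8% of its MK cells were positive. Cdkn2d was highest in cluster 10, at 54.1 CPM in 75 Diff_MK cells of which 24% had a high doublet score, and next in cluster 6, in which 12 of 15 G2/M genes were raised, at 49.3 CPM in Diff_MK and 51.5 CPM in MK.

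**Figure D3:**
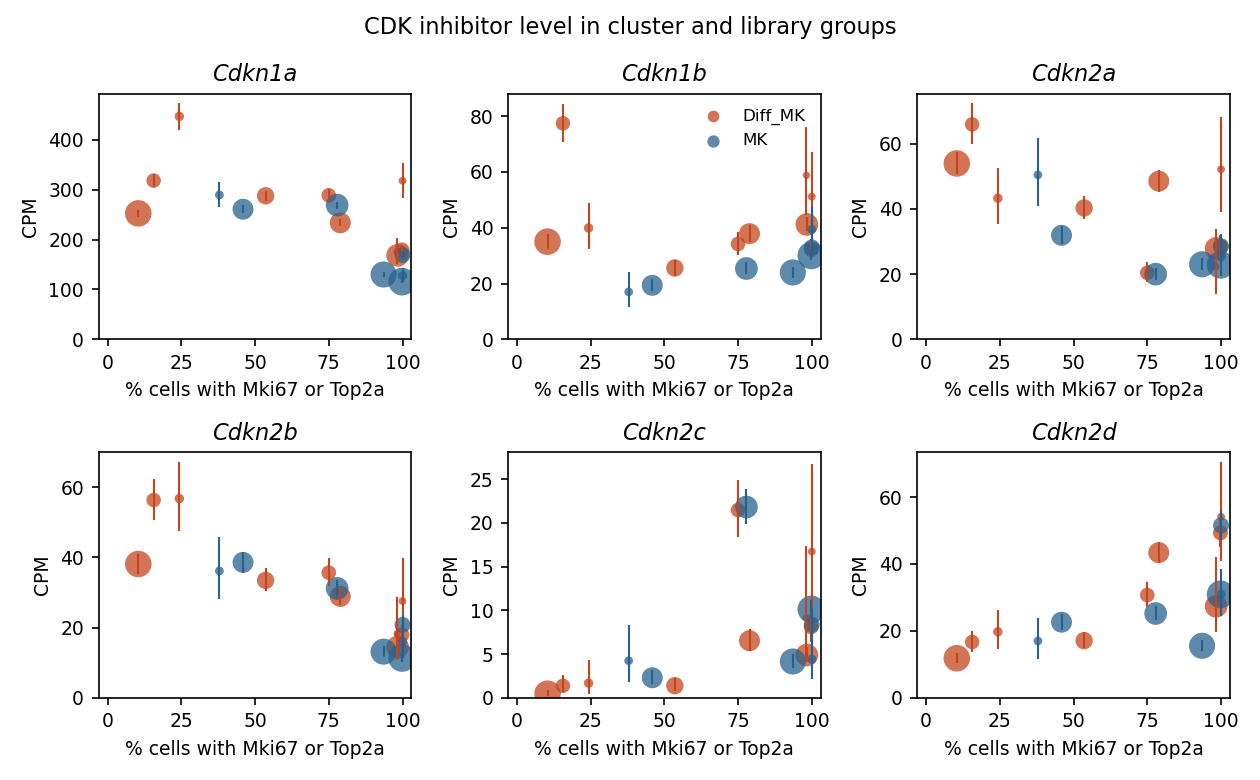
Level in CPM (linear axes) of 6 members in 17 cluster and library groups, against the percent of cells in the group with Mki67 or Top2a UMIs, with larger points for more cells and 95% counting intervals as lines. Cdkn1a and Cdkn2b tend to be lower toward the right and Cdkn2d higher, with the exception of 318 CPM of Cdkn1a in the 75 Diff_MK cells of cluster 10, all of them positive, and for Cdkn2c the Diff_MK and MK cells of cluster 4 lie together near 21.5 and 21.8 CPM.

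Over the 17 groups, Cdkn1a and Cdkn2b had a Pearson r of 0.93, and each was among the 3 genes most like the other out of 5389 genes at 20 CPM or more. Cdkn2c and Cdkn2d had an r of 0.70. Cdkn2a, although next to Cdkn2b on the chromosome, had an r of 0.64 with it and 0.60 with Cdkn1a, and -0.59 with Cdkn2c. Cdkn1b had an r between 0.01 and 0.24 with each of the 5 others. The genes most like each member were Mfsd11 (0.91) and Hist1h2bc (0.89) for Cdkn1a, besides Cdkn2b; Ctsh (0.94) and Ypel3 (0.92) for Cdkn2b, besides Cdkn1a; Pex13, Dnpep and Capg (each 0.93) for Cdkn2a; Yif1b (0.86), Ddi2 (0.82) and Hook3 (0.76) for Cdkn1b; and Nusap1 (0.87), Fzr1 (0.86) and Arl6ip1 (0.85) for Cdkn2d. These are descriptions over groups that share 2 libraries and differ in depth.

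Marker genes of keratinocyte states were then used to split cells thinned to 7500 UMIs, so that both sides had the same depth. Negative cells are here those without Mki67 or Top2a UMIs after thinning, 2884 in Diff_MK and 1419 in MK. Lor, which encodes loricrin, a main protein of the cornified envelope, marked 228 of the negative Diff_MK cells and 392 of the negative MK cells. Over all kept cells Lor had 30.6 CPM in Diff_MK and 83.8 CPM in MK. The 10 granular keratinocyte markers, Lor among them, went the other way in sum, with 1241 CPM in Diff_MK and 572 CPM in MK. So did Crct1, with 26.1 and 0.564 CPM. In cluster 4, led by Pth1r and Lor, 2 of these 10 markers were raised. Whether Lor stands for a keratinocyte state here was not tested. Cdkn2c had 10.5 CPM in Lor-positive and 1.15 CPM in Lor-negative cells of Diff_MK (18 and 23 UMIs), a ratio of 9.12 (4.64 to 17.7). In MK it had 18.4 CPM in Lor-positive and 1.30 CPM in Lor-negative cells (54 and 10 UMIs), a ratio of 14.1 (7.13 to 31.2). In cells positive for Mki67 or Top2a, Cdkn2c was higher with Lor as well, by 2.93-fold (2.06 to 4.09) in Diff_MK and 2.55-fold (2.05 to 3.16) in MK.

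Among the negative cells, Cdkn1a had 399 CPM with Lor and 264 CPM without it in Diff_MK (ratio 1.51, 1.39 to 1.64), and 347 CPM with Lor and 240 CPM without it in MK (ratio 1.45, 1.34 to 1.56). Cdkn2b was higher with Lor too, with ratios of 1.40 (1.12 to 1.74) in Diff_MK and 1.38 (1.11 to 1.72) in MK. Cdkn2a was lower with Lor, with ratios of 0.638 (0.479 to 0.836) in Diff_MK and 0.507 (0.364 to 0.693) in MK. Cdkn1b was at 1.01 in Diff_MK and 0.985 in MK, with intervals that hold 1. In positive cells, Cdkn1a and Cdkn2b were also higher with Lor in both libraries, while Cdkn2a had a ratio of 0.696 (0.514 to 0.924) in Diff_MK and 0.982 (0.815 to 1.18) in MK. Among genes at 10 CPM or more, 23.1% of 7444 genes in negative Diff_MK cells and 15.4% of 7887 genes in negative MK cells were past 1.5-fold higher with Lor, and 5.01% and 8.29% past it lower.

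Other markers picked out other members. Krt78, a keratin of suprabasal cells, marked 329 negative Diff_MK cells, in which Cdkn1b had 83.5 CPM, against 34.3 CPM in the 2555 others (ratio 2.43, 2.07 to 2.85), beside 10.6% of 7170 genes past 1.5-fold higher and 25.6% past it lower. In MK only 54 negative cells had Krt78, and Cdkn1b had 22.2 CPM in them and 17.0 CPM in the others, with an interval of 0.588 to 2.54 on the ratio. Krt15, a keratin of basal cells and hair follicle stem cells, marked 1777 negative Diff_MK cells. Cdkn2a had 56.9 CPM with Krt15 and 38.5 CPM without it (ratio 1.48, 1.29 to 1.69), Cdkn1a 260 and 299 CPM (ratio 0.868, 0.824 to 0.914), and Cdkn2c 0.975 and 3.37 CPM (ratio 0.289, 0.138 to 0.577). In positive Diff_MK cells the direction with Krt15 turned for Cdkn1a, with 235 CPM with Krt15 and 195 CPM without it (ratio 1.21, 1.14 to 1.28), and Cdkn2c had a ratio of 1.30 (0.952 to 1.75), while Cdkn2a was again higher (1.41, 1.22 to 1.63). Of 7229 genes, 2.31% were past 1.5-fold higher and 16.7% past it lower with Krt15 in negative cells. Cdkn2a was higher with Lgals7, the gene of galectin-7, in the negative cells of both libraries. The ratios were 1.65 (1.39 to 1.97) in Diff_MK and 1.66 (1.21 to 2.24) in MK. The share of all genes past 1.5-fold was not counted for the Lgals7 split, so whether Cdkn2a stands out there is not known.

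**Figure D4:**
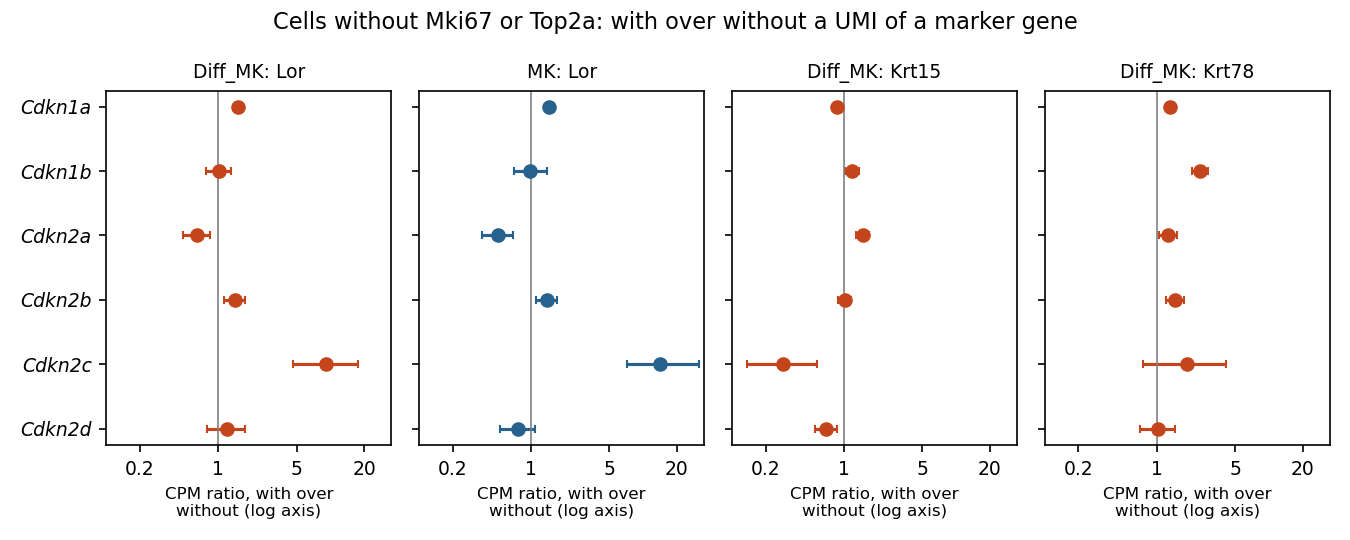
Ratio of CPM (log axis) in negative cells with over without a UMI of Lor, Krt15 or Krt78, thinned to 7500 UMIs, in Diff_MK (red) and MK (blue), with 95% counting intervals and a line at 1. Cdkn2c stands at 9.12 and 14.1 with Lor, and Cdkn1b at 2.43 with Krt78.

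At 7500 UMIs, Cdkn1a was seen in 74.2% of Diff_MK cells and 62.1% of MK cells, Cdkn1b in 24.5% and 17.5%, Cdkn2a in 23.9% and 16.2%, Cdkn2b in 19.4% and 13.7%, Cdkn2d in 16.3% and 16.6%, and Cdkn2c in 3.71% and 6.19%. Without thinning, Cdkn1a was seen in 87.0% of Diff_MK cells and 80.3% of MK cells, and Cdkn2c in 6.90% and 12.4%. No cell type that should lack these genes was found, so the share that free RNA gives could not be measured. A thinned cell held UMIs of 1.62 members on average in Diff_MK and 1.32 in MK, 10.2% of Diff_MK and 18.7% of MK cells held none, and no cell held more than 5. Pairs of members met in the same cell 0.598 to 1.40 times as often as the product of their shares in Diff_MK and 0.818 to 1.16 times in MK. Both ends in Diff_MK, and the low end in MK (Cdkn2a with Cdkn2c), were pairs with Cdkn2c. Cdkn2b and Cdkn2c were seen together in 27 Diff_MK cells (0.598 times) and 51 MK cells (0.880 times), and Cdkn2c and Cdkn2d in 53 Diff_MK cells (1.40 times) and 79 MK cells (1.13 times). Within positive Diff_MK cells, the pairs stood at 0.682 and 1.11 times. The neighbours Cdkn2a and Cdkn2b were seen together in 335 Diff_MK cells, 1.15 times the product, and in 157 MK cells, 1.035 times.

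Lineage tags gave clones, the sets of cells with the same leading tag. Of clones with at least 20 cells there were 50 in Diff_MK and 46 in MK, numbered by size within each library. Cdkn1a ranged over clones between 163 and 417 CPM with a median of 227 CPM in Diff_MK, and between 118 and 291 CPM with a median of 157 CPM in MK. The highest Cdkn1a level was that of Diff_MK clone 36 (31 cells, 366 to 473 CPM), which also had 27.5 CPM of Cdkn2c. In that clone 77.4% of cells had a Lor UMI, against a median of 11.9% over Diff_MK clones. Diff_MK clone 43 (26 cells), with Lor in 61.5% of its cells, had the highest Cdkn2c level of Diff_MK, 32.2 CPM (17.2 to 55.1 CPM), and 347 CPM of Cdkn1a. At the other end, Cdkn2c had 0 UMIs in 5 Diff_MK clones and 2 MK clones, the largest being Diff_MK clone 11 (125 cells, upper bound 1.69 CPM), with Lor in 6.40% and Mki67 or Top2a in 73.6% of its cells. In MK, clone 42 (23 cells) had the highest Cdkn2c level, 35.5 CPM (18.9 to 60.7 CPM), with Lor in 30.4% of its cells against a median of 23.9% over MK clones.

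The Cdkn2a interval lay above the median over Diff_MK clones in 15 and below it in 4 of 50 clones, with a range between 13.6 and 72.3 CPM and a median of 34.7 CPM. In MK 1 clone lay above and 1 below a median of 24.8 CPM. These counts depend on cell numbers, 4379 cells in the Diff_MK clones and 2278 in the MK clones, and were not made for all genes. For Cdkn1a they were 9 above and 6 below in Diff_MK and 7 and 2 in MK. For Cdkn2d they were 8 and 5 in Diff_MK and 3 and 1 in MK, for Cdkn1b 6 and 3 and 0 and 1. For Cdkn2b they were 3 and 2 and 0 and 1, and for Cdkn2c 4 and 4 and 2 and 2. Of the clones, 21 were found in both libraries with at least 20 cells in each. Among these, Cdkn1a was higher in Diff_MK in 20 (14 with intervals apart), Cdkn1b in 19 (3 apart), Cdkn2a in 18 (5 apart), Cdkn2b in 18 (3 apart) and Cdkn2d in 17 (0 apart), and Cdkn2c was lower in Diff_MK in 16 (1 apart). The counts over shared clones were not made for all genes either. In each of the 21 the share of positive cells was also lower in Diff_MK, as in clone 1 of both libraries, at 60.9% against 87.9% in MK. The clones of a library share its preparation and are not replicates of it.

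**Figure D5:**
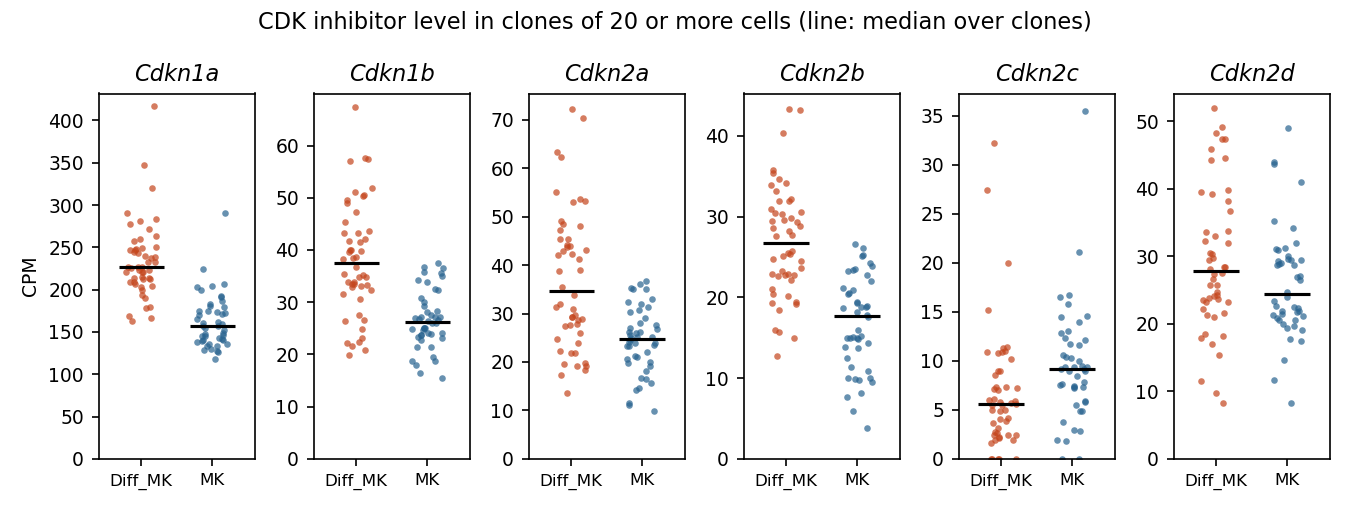
Level in CPM (linear axes from 0) of 6 members in clones of at least 20 cells, 50 of Diff_MK (red) and 46 of MK (blue), each point 1 clone and each line the median over clones. The medians for Cdkn1a are 227 CPM in Diff_MK and 157 CPM in MK, and single clones reach 32.2 CPM and 35.5 CPM of Cdkn2c.

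The partners and regulators of the CDK inhibitors were read from 7 lists, with genes counted at 10 CPM or more and at 1.5-fold, beside the shares of all genes given above. Unless a class is named, library counts cover all kept cells, of which 57.5% were positive in Diff_MK and 84.4% in MK. Counts within each class are therefore given too. Of all genes, 3.03% were higher and 2.43% lower in Diff_MK within positive cells, and 6.03% and 28.6% within negative cells. Of 5 D cyclins and their kinases, 0 were higher and 1 was lower in Diff_MK, with a median log2 ratio of -0.33 beside -0.16 for all genes that reached 10 CPM in either library. The lower gene was Ccnd1 (cyclin D1), the most abundant of the list, with 338 CPM in Diff_MK and 663 CPM in MK, while Ccnd2 had 255 and 208 CPM. Between the libraries, 1 of these 5 genes was lower within positive cells and 3 within negative cells. Of 6 E, A and B cyclins and kinases, 2 were lower, with a median of -0.57: Ccne2 had 8.07 CPM in Diff_MK and 14.9 CPM in MK, Cdk1 136 and 190 CPM, and Ccnb2 62.3 and 60.9 CPM. Between the libraries, 1 of 6 genes of that list was lower within positive cells and 6 of 6 within negative cells. In positive cells over negative cells, 5 of 5 measured genes of that list were past 1.5-fold higher in Diff_MK and 4 of 6 in MK. Of 8 pocket protein and E2F genes, the targets through which CDK4 and CDK6 act, 3 were lower, with a median of -0.46. Within positive cells 3 of 9 were lower in Diff_MK, and within negative cells 5 of 6. E2f8 had 9.86 CPM in Diff_MK and 19.6 CPM in MK, E2f4 57.5 and 93.0 CPM, and Rb1 10.8 and 9.47 CPM.

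Of 11 genes for the breakdown of p27 and p21, 3 were lower in Diff_MK, with a median of -0.27. Within positive cells 1 of 11 was lower in Diff_MK, and within negative cells 4 of 10 were lower and 1 was higher. Pcna, the replication clamp, had 130 CPM in Diff_MK and 246 CPM in MK, Ddb1 202 and 244 CPM, and Cul4a 45.2 and 34.4 CPM. Of 15 genes of the p53 pathway, 5 were higher and 0 lower, with a median of 0.09. Within positive cells 3 of 14 were higher and 0 lower in Diff_MK, and within negative cells 4 of 16 were higher and 3 lower. Trp53inp1 had 15.1 CPM in Diff_MK and 6.24 CPM in MK, and Perp, a p53 target and desmosome protein, 871 and 519 CPM, whereas Trp53 itself had 141 and 201 CPM. Within libraries, 4 of 15 genes of this list were past 1.5-fold lower in positive than in negative Diff_MK cells and 5 of 16 in MK, with 1 higher in Diff_MK and 0 in MK. Trp53inp1 had 9.82 CPM in positive and 25.7 CPM in negative Diff_MK cells, and 4.57 CPM in positive and 17.1 CPM in negative MK cells, the direction seen for Cdkn1a. Of 13 repressors of the Cdkn2a and Cdkn2b genes, mostly Polycomb proteins, 0 were higher and 4 were lower in Diff_MK, with a median of -0.34. Within positive cells 1 of 14 was lower in Diff_MK, with a median of -0.17 beside -0.06 for all genes. Within negative cells 7 of 13 were lower, with a median of -0.61 beside -0.35. Over all kept cells, the lowest ratio was that of Hmga2, a chromatin protein, with 170 CPM in Diff_MK and 477 CPM in MK. Of 14 regulators in the TGF-beta, Foxo and Myc families, 1 was higher (Mxd1, a partner of Max, with 18.5 CPM in Diff_MK and 9.07 CPM in MK) and 0 were lower, with a median of 0.03. Klf4 had 112 CPM in Diff_MK and 84.0 CPM in MK, and Tgfbr1 9.97 and 14.4 CPM. Within positive cells 0 of 14 were higher or lower, and within negative cells 3 of 14 were higher and 4 lower in Diff_MK.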

How the data were processed

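RNA was measured with 10x 3′ v3 chemistry in 1 library each of GFP-sorted Diff_MK and MK cells, and lineage tags in a matching library, per the labels. The deposited matrices hold whole-number counts, UMIs per gene and cell barcode in the RNA files and counts per tag in the tag files, without normalization. Per the submitters' processing notes, Cell Ranger 6.1.2 and mm10 were used. How tags were counted is not given in the sources used here.

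Counts of kept cells were summed per group and scaled to CPM. Levels carry exact Poisson, shares Clopper-Pearson and ratios conditional binomial intervals (95%). With 1 library per group no test between groups was possible. Clusters came from Scanpy 1.11.5 and leidenalg 0.10.2 (2000 variable genes, 30 principal components, 15 neighbours, resolution 0.5), members left out. Doublets were scored with Scrublet and kept, and a high score is one among the top cells that the expected doublet rate allows. A clone's leading tag had at least 3 counts and 2 times the next. The ratio intervals and the 1.5-fold rule were checked on simulated Poisson counts, which hold no spread between cells beyond counting. Thinning was checked on cells of Diff_MK. Clusters, clones, bins and marker splits were not checked in this way. Positions are from GENCODE vM21.

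Besides the members, the genes named by rule are Mki67, Top2a, the gene with the highest mean level and those with the highest and lowest ratio in each list, the 3 most like each member at 10 CPM or more (Pearson r of log2(CPM + 1)), and the marker genes; 1 gene that the rule names is not reported here. Leading genes of clusters are named to describe the clusters. The members and lists were chosen with earlier results of these data known. The steps by Mki67 and Top2a UMIs, the marker splits within classes, the weighting to MK shares and the Lor share of clones were added after seeing the data. Clones named by number and the pairs of members named were chosen after their values were seen.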

Additional observations from a re-analysis of the deposited data

Results flagged for a closer look

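Cdkn1b was singled out because its ratio of cells with Mki67 or Top2a UMIs to cells without them lay below 1 in Diff_MK and above it in MK. The Diff_MK ratio was 0.956, with an interval of 0.896 to 1.02 that holds 1, so no direction was resolved there. The MK ratio was 1.41 (1.25 to 1.60). The difference between these ratios was not tested, since each name has 1 library.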

How the results depend on the processing

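No paired analysis was possible because each group has 1 library and the labels give no replicate numbers. Leaving out a replicate was not possible for the same reason. Scaling by the median ratio of genes reversed 1 of the ratios whose interval lay away from 1. Cdkn2d in cells without Mki67 or Top2a, Diff_MK over MK, came to 1.06 in place of 0.853. There 5 of 6 members lay above a ratio of 1 in place of 3. The scaling itself sets the median gene, at 0.801 before, to 1, and the share of all genes above 1 was not counted. The same scaling moved all 6 ratios of Diff_MK to MK over all kept cells outside their counting intervals. It did so too for 5 of 6 ratios of positive to negative Diff_MK cells. The stricter cell filter, leaving out high doublet scores, all deposited barcodes, and leaving out barcodes of both libraries reversed none of the called ratios they were run on. Over all results and settings, 92 values moved past the range set for them, 1 reversed and 234 stayed. The intervals therefore do not cover the choices of processing. Cdkn1b with over without Mki67 or Top2a was 1.67 in MK after thinning to 7500 UMIs and 0.867 in Diff_MK when cells were split by any G2/M UMI. Cdkn2c in MK was 1.27 with each cell weighted equally and 2.13 with the split by G2/M UMIs. The range of Cdkn2c over clusters at resolution 1.0 was not computed, since a cluster held too few UMIs. Depth limits Cdkn2c: at 7500 UMIs it was seen in 3.71% of Diff_MK and 6.19% of MK cells, so its split by Lor in negative Diff_MK cells rests on 18 and 23 UMIs. Cdkn1c was at the edge of detection.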

Other observations

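Single cells reached far higher levels than any group. The Diff_MK cell with the most Cdkn1a held 104 UMIs of it among 7853 in all, with 0 UMIs of Mki67 or Top2a, and the next held 94 among 6785. In MK, the cell with the most Cdkn1a, 65 UMIs among 20776, was also the cell with the most Cdkn2b, 15 UMIs. The MK cell with the most Cdkn2a held 21 UMIs of it and 9 of Mki67 or Top2a, 0 of Cdkn2b and 3 of Cdkn1a, and the MK cell next in order held 7 UMIs of Cdkn2a. These cells were picked for their values, and no test was made on them.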
